A study of Daphnia magna with 48 samples.

Results

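The effect of 2,3,4-trichloroaniline on transcript levels in Daphnia magna, a freshwater water flea used in toxicity testing, was set against the mean effect of the 3 less chlorinated anilines of the same study: aniline, 4-chloroaniline and 3,5-dichloroaniline. The measure for each probe was a difference of differences: exposed minus control for trichloroaniline, less the mean of exposed minus control for the other 3 chemicals. It compares groups on 24 of the study's 48 2-colour Agilent arrays, while the spread and the dye term were fitted over all 48. It covered all 6006 rows of the deposited table whose ID starts with DM. These rows were taken as the Daphnia probes, and 27 other rows were left aside as control rows. No table used here pairs the probe IDs with genes, so probes are named by their ID and no function or pathway is given.

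Anilines are benzene rings that carry an amino group, and the chlorinated ones are intermediates and breakdown products of dyes and pesticides. They are often classed with the polar narcotics, chemicals whose acute toxicity is put down largely to their partitioning into membranes. Whether that holds for anilines in Daphnia was not tested here. Chlorine makes the molecule more hydrophobic. Aniline carries 0 ring chlorines, 4-chloroaniline 1, 3,5-dichloroaniline 2 and 2,3,4-trichloroaniline 3. Chlorine sits opposite the amino group in 4-chloroaniline and 2,3,4-trichloroaniline but not in 3,5-dichloroaniline.

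Each of the 4 chemicals had 3 control and 3 exposed samples, which makes 8 groups. Newborn daphnids were held for 96 h with or without the chemical, their water was renewed every 48 h, and each sample was the whole-body RNA of 30 pooled animals at day 4. The labels call the 3 samples of a group biological replicates and give no clone or strain. Every chemical was used at its own EC10, the concentration that immobilised 10% of the animals in separate tests over the same time. No concentration was given, so the comparison is at matched effect and time and not at matched dose. Number of chlorines, their positions, concentration and experiment, each with its own controls, cannot be told apart in these contrasts. A fall in a whole-body level can likewise not be told from a loss of cells or tissue that carry the transcript.

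Each array held 1 sample in Cy5 or Cy3 and, in the other dye, a common reference mixed from control and exposed samples. In the aniline and 4-chloroaniline experiments 2 of 3 controls and 1 of 3 exposed samples were in Cy5. In the 3,5-dichloroaniline and trichloroaniline experiments it was the other way round, 1 of 3 controls and 2 of 3 exposed. The dye was therefore a term in every fit. The values look like log2 ratios centred on 0, with array medians between -0.02 and 0.01. The arrays appear to run the same way, since the median correlation of opposite-dye arrays within a group was positive. It was r = 0.44 over all groups and 0.35 over the anilines, which says nothing of which way. Single pairs were negative, with r = -0.27 for aniline controls 1 and 2 and -0.04 for aniline exposed samples 1 and 3. The direction is likely, but not certainly, sample over reference. The reference was mixed from the samples, so the mean of the linear ratios over all samples should lie near 1. Over the 510 probes with an SD of 0.6 or more, the median log2 of that mean was -0.00 with the values as deposited and 0.47 with the sign turned. Over the other 5496 probes the median size was 0.0829 and 0.0773, which does not separate the directions. Every higher and lower below rests on this direction and would swap if it were the other way round. A spike-in control row changed sign with the dye of the sample on all 48 arrays (mean 3.05 ± 0.64 with the sample in Cy5 and -3.57 ± 0.62 in Cy3, SD, n = 24 each).

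Replicates spread unequally. The residual SD over all probes was 0.194 in the trichloroaniline experiment, 0.223 with 3,5-dichloroaniline, 0.258 with aniline and 0.284 with 4-chloroaniline. The 3 arrays exposed to trichloroaniline correlated with each other at r = 0.56 to 0.82 across probes, their 3 controls at 0.02 to 0.42, and the 3 aniline controls at -0.27 to 0.24. Genes on 1 array are not independent, and these correlations describe the arrays only.

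A total of 106 probes, 1.76% of the 6006, differed between trichloroaniline and the mean of the other 3 anilines (limma, Benjamini-Hochberg adjusted p under 0.05, two-sided). Of these, 71 responded more positively to trichloroaniline and 35 more negatively, which is 1.18% and 0.583% of all probes. The difference reached 2-fold for 57 of them, 36 higher and 21 lower. At an unadjusted p under 0.05 there were 1094 probes. The median 95% confidence interval of a difference was ± 0.33 log2 units.

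The effects of the less chlorinated anilines at the called probes went both ways, more often against the difference than with it. They shared its sign at 23 of the 106 with aniline, 39 with 4-chloroaniline and 34 with 3,5-dichloroaniline (21.7%, 36.8% and 32.1%). Among all 6006 probes the shares were 44.2%, 32.8% and 45%. These effects enter the difference with a minus sign, so an opposite sign is usual. Over the 71 higher probes the median effect was 0.95 with trichloroaniline, -0.12 with aniline, -0.02 with 4-chloroaniline and -0.08 with 3,5-dichloroaniline. Over the 35 lower probes the medians were -1.14, 0.16, 0.14 and 0.05 in the same order. Over all 6006 probes the median effect of trichloroaniline was -0.00 and the median difference -0.01. The calls were made on this difference, so these medians describe the called probes and test nothing. Single effects at the 106 probes ran from -1.14 to 0.80 with aniline, from -1.12 to 1.30 with 4-chloroaniline and from -0.71 to 1.06 with 3,5-dichloroaniline. The mean effect of the other 3 anilines exceeded 0.5 in size at 1 of the 106 probes and at 26 of all 6006.

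All 106 probes had a trichloroaniline effect of the same sign as the difference, against 5339 of all 6006, or 88.9%. That effect is a term of the difference, so the same sign is usual. Trichloroaniline against its own controls called 234 probes (3.9%; 138 higher and 96 lower), and 94 of them were among the 106. That is 88.7% of the 106 and 40.2% of the 234. The mean effect of the 3 less chlorinated anilines called 1 probe (0.0167%), aniline and 3,5-dichloroaniline alone called 0, and 4-chloroaniline alone called 2 (0.0333%), with 335, 371, 265 and 603 probes at an unadjusted p under 0.05. The SD of the fitted effects over all probes was 0.358 with trichloroaniline, 0.204 with aniline, 0.215 with 4-chloroaniline and 0.177 with 3,5-dichloroaniline.

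**Figure D1:**
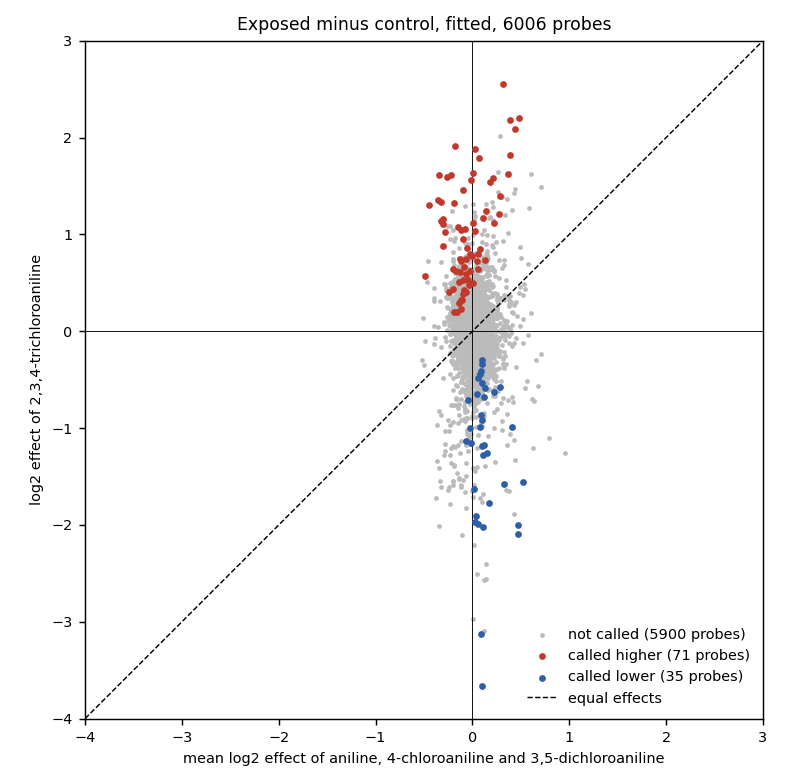
Fitted log2 effect of 2,3,4-trichloroaniline on the vertical axis against the mean log2 effect of aniline, 4-chloroaniline and 3,5-dichloroaniline on the horizontal axis, 1 point per probe, with the 71 higher and 35 lower called probes in colour and a dashed line at equal effects. The called probes lie along the vertical axis, with trichloroaniline effects down to -3.66 and up to 2.56, while the mean of the other 3 exceeds 0.5 in size at 1 of them.

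DM10770P3 had the largest positive difference. In the trichloroaniline experiment its log2 ratio was -0.84, -1.0 and -0.75 in the controls and 1.44, 1.81 and 1.89 in the exposed samples. The exposed samples of the other 3 chemicals ranged from -0.56 to 0.65 and their controls from -1.08 to 0.35, so all 3 trichloroaniline samples stood above the other 21 arrays. Its difference was 2.24 ± 0.33 (SE; 4.73-fold, adjusted p = 0.000177). The fitted effect of aniline was 0.80 and did not pass the test (adjusted p = 0.704).

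DM07587P3 read -0.46, -0.11 and -0.12 in the trichloroaniline controls and 1.27, 1.40 and 1.44 in the exposed samples. The exposed values were -0.59, 0.00 and -0.40 with aniline, -0.23, 1.07 and 0.93 with 4-chloroaniline and -0.87, -0.75 and -0.30 with 3,5-dichloroaniline. The 4-chloroaniline controls were high as well, at 1.01, 0.87 and 0.69. All 3 trichloroaniline exposed samples still lay above every other aniline array, the highest of which was 4-chloroaniline exposed sample 2 at 1.07. The difference was 1.96 ± 0.42 (SE, adjusted p = 0.00886).

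DM08355P3 had the smallest adjusted p. Its values were -0.07, 0.02 and -0.01 in the trichloroaniline controls and 0.61, 0.98 and 0.44 in the exposed samples. Every other aniline array lay between -0.21 and 0.31, a narrow band below all 3 exposed samples. The difference of 0.75 ± 0.10 (SE, adjusted p = 0.000105) was small in size. It was large against the spread pooled over all groups, on which the SE rests. The exposed trichloroaniline samples had the widest spread of all groups (SD 0.27, against 0.05 in their controls). DM05303P1 read -0.15, 0.08 and 0.18 in the trichloroaniline controls and 0.88, 1.01 and 0.61 in the exposed samples. Its difference was 0.88 ± 0.13 (SE, adjusted p = 0.000179).

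Among the lower probes DM00126P2 had the largest difference. It read -0.27, 0.83 and 0.21 in the trichloroaniline controls and -3.77, -2.41 and -3.99 in the exposed samples. Over the other 18 arrays it varied between -1.34 and 0.64, well above the 3 exposed samples. The difference was -3.76 ± 0.73 (SE; 13.6-fold lower, adjusted p = 0.00428). DM03174P1 had a similar profile, with controls at -0.20, 0.83 and -0.09, exposed samples at -1.92, -1.41 and -1.79, and a difference of -2.04 ± 0.37 (SE, adjusted p = 0.00274). Control 2 was the highest of the 3 controls at both probes.

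DM07423P3 had the smallest adjusted p of the lower probes. It read 0.35, 0.14 and 0.53 in the trichloroaniline controls and -1.33, -1.50 and -1.10 in the exposed samples, so the groups lay far apart and each was tight. The other experiments sat at levels of their own, with the aniline controls at 0.31, 0.70 and 0.71 and the 4-chloroaniline controls at -1.09, -0.70 and -0.56. The difference was -1.64 ± 0.25 (SE, adjusted p = 0.000179).

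DM11630P3, with the second largest negative difference among the probes described here, was far noisier. Its trichloroaniline controls read -0.51, 1.41 and -0.15 and its exposed samples -2.81, -1.66 and -3.49. The groups did not overlap, but both spread over more than 1.5 log2 units. The difference of -3.22 ± 0.87 (SE, adjusted p = 0.0475) lost its call in 25 of 34 alternative settings.

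**Figure D2:**
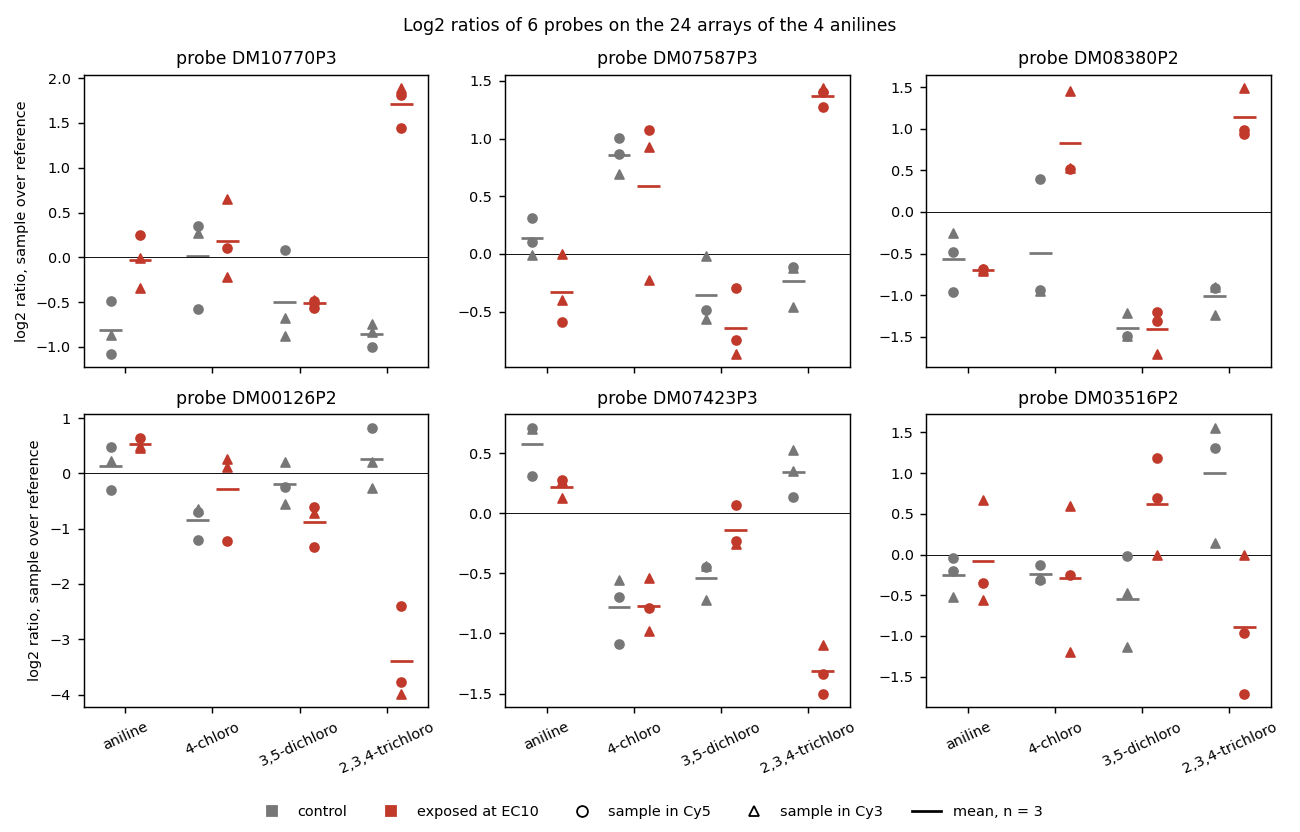
Log2 ratio (sample over reference, vertical axis) of 6 probes in each of the 24 samples, by chemical, with controls in grey, exposed samples in red, circles for samples in Cy5, triangles for samples in Cy3 and bars at the mean of 3. The mean of the trichloroaniline exposed samples lies apart from the mean of their controls at each of the 6. At DM08380P2 the 4-chloroaniline exposed samples are high too, with control 1 close to them and controls 2 and 3 low. At DM03516P2 2 of 3 trichloroaniline controls are above 1, and exposed sample 3 is close to control 3.

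The difference between exposures and the difference between controls were separated. The exposed trichloroaniline level differed from the mean exposed level of the other 3 at 513 probes (8.54%; 379 higher and 134 lower). The control level differed at 20 (0.333%; 18 higher and 2 lower). Of the 106 probes, 84 were also called at the exposed level in the same direction. The control level of the trichloroaniline experiment had the same sign as the difference at 17 of the 106, or 16%, against 1681 of all 6006, or 28%. It enters the difference with a minus sign, so an opposite sign is usual. It was called at 4 of the 106, each with the opposite sign. Its median was -0.18 over the higher probes and 0.50 over the lower probes.

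The control level made up over 0.5 of the difference at 15 of 35 lower and at 5 of 71 higher probes, against 2483 of all 6006. The share of the lower probes is close to that over all probes. DM07911P1 read 1.45, 1.36 and -0.18 in the trichloroaniline controls and -0.68, -0.55 and -0.52 in the exposed samples. The exposed samples lay inside the range of the other exposed samples, from -1.24 to 1.03, and 2 of the 3 controls lay above every other aniline array. Its difference was -2.08 ± 0.45 (SE, adjusted p = 0.0105), beside a control level higher by 1.55. Without control 1 or control 2 the adjusted p was 0.074 and 0.0726.

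DM03516P2 also had 2 high controls, with controls at 1.56, 1.31 and 0.14 and exposed samples at -0.96, -1.71 and 0.00. Exposed sample 3 was close to control 3, while exposed sample 2 lay below every other aniline array. The difference was -2.46 ± 0.57 (SE, adjusted p = 0.0177), and the trichloroaniline controls were higher than the mean of the other controls by 1.42. Its adjusted p ran from 0.0503 to 0.118 without control 1, control 2, exposed sample 1 or exposed sample 2.

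Across all 106 probes, the 3 exposed samples lay all above their controls at 70 of the 71 higher probes and all below at 33 of the 35 lower probes. Such a separation, in either direction, occurred at 24.5% of all probes. They lay beyond all other 21 aniline arrays at 25 of the 71 and 12 of the 35, against 149 probes or 2.48% of all. Because the same arrays made the calls, these shares describe the called probes only.

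The number of calls rested on few arrays. It was 42 without trichloroaniline control 1, 35 without control 2, 63 without exposed sample 1, 35 without exposed sample 2 and 60 without exposed sample 3, and it rose to 222 without 4-chloroaniline control 3. Without trichloroaniline control 3 it was 125, and the balance turned from 71 higher and 35 lower to 57 higher and 68 lower. Higher calls outnumbered lower ones without each of the other 23 arrays in turn. With aniline left out of the mean of the less chlorinated anilines the count was 57 (0.949%), with 4-chloroaniline left out 80 (1.33%) and with 3,5-dichloroaniline left out 73 (1.22%). The count for trichloroaniline against its own controls, 234, was 85 and 97 without controls 1 and 2, and 129, 75 and 142 without exposed samples 1, 2 and 3.

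**Figure D3:**
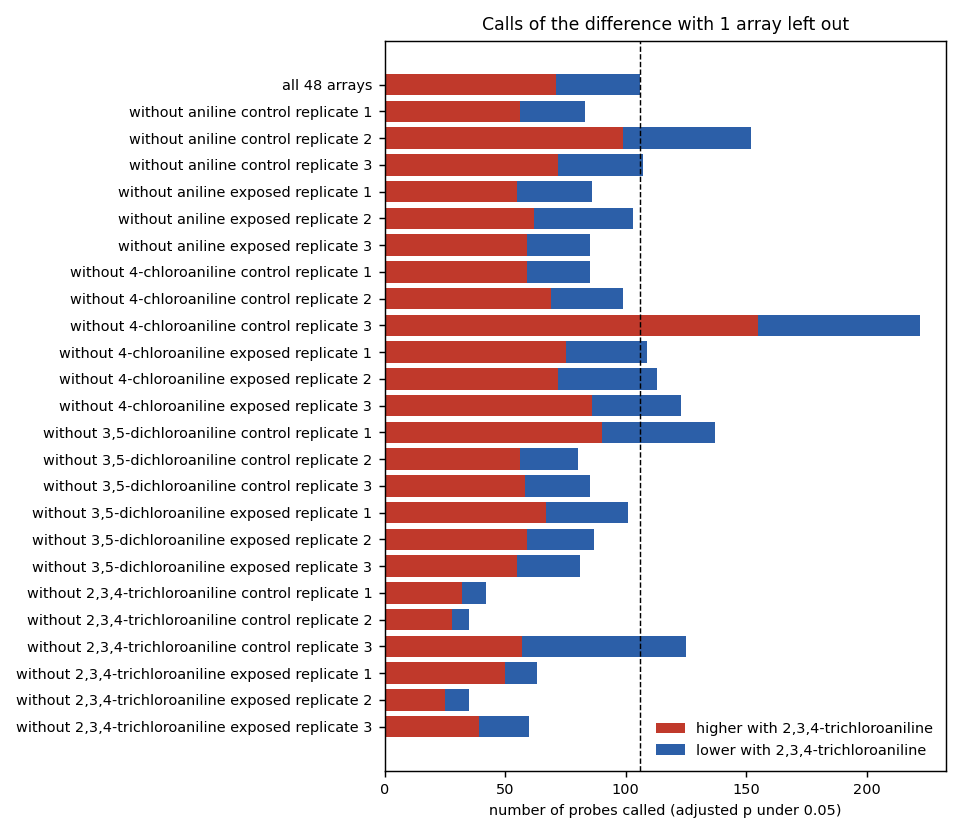
Number of probes called for the difference (horizontal axis, higher in red and lower in blue) with all 48 arrays and with each of the 24 aniline arrays left out in turn, with a dashed line at the 106 of the full set. The count runs from 35 to 222, and lower calls outnumber higher calls only without trichloroaniline control 3.

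Each of the 6 pairs of anilines was then compared at EC10 and 96 h, with p-values adjusted over the 36036 tests of all pairs together. Trichloroaniline differed from aniline at 25 probes (0.416%; 18 higher and 7 lower), from 4-chloroaniline at 26 (0.433%; 21 and 5) and from 3,5-dichloroaniline at 20 (0.333%; 16 and 4). These comparisons share the trichloroaniline samples, so their lists are not set against each other. Among the less chlorinated anilines, 3,5-dichloroaniline differed from 4-chloroaniline at 2 probes (0.0333%), while 4-chloroaniline against aniline and 3,5-dichloroaniline against aniline gave 0 calls in limma, with smallest adjusted p of 0.05 and 0.0597. At an unadjusted p under 0.05 the latter pairs had 534 and 334 probes, and the 3 trichloroaniline pairs 739, 1211 and 717. The median 95% interval of a pairwise difference was ± 0.40 (± 0.39 where the dye layout matched), so a difference within it was not resolved at a typical probe, and the pairs without calls are not shown to act alike. The 2 calls between 3,5-dichloroaniline and 4-chloroaniline rested on the adjustment over all pairs together. Adjusted within that pair alone there were 0 calls. Leaving out 1 array in turn gave 0 to 42.

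The pairwise counts also moved with single arrays. Against aniline the 25 calls became 6 without aniline exposed sample 1 and 63 without 4-chloroaniline control 3. Against 4-chloroaniline the 26 became 5 without trichloroaniline exposed sample 2 and 167 without 4-chloroaniline control 3. Against 3,5-dichloroaniline the 20 became 6 without trichloroaniline exposed sample 2 and 44 without 4-chloroaniline control 3. In each of the 3 pairs the count also moved by over 1.5 times without trichloroaniline control 1 (13, 6 and 7 calls), control 2 (10, 10 and 7), exposed sample 1 (11, 13 and 13) and aniline control 1 (51, 71 and 40).

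DM08355P3 was called in all 3 pairs with trichloroaniline: by 0.81 over aniline (adjusted p = 0.0024), 0.69 over 4-chloroaniline (0.0116) and 0.75 over 3,5-dichloroaniline (0.00416). DM10770P3 was higher by 2.38 over 4-chloroaniline (adjusted p = 0.00467) and 2.59 over 3,5-dichloroaniline (0.0024). Its 1.76 over aniline just missed the threshold, with an interval of 0.94 to 2.58. DM07423P3 was lower by the most against 3,5-dichloroaniline, at -2.05 (adjusted p = 0.00232), with -1.62 against 4-chloroaniline (0.0173) and -1.25 against aniline (0.0677, not called). DM07587P3, called against the mean of the 3, passed in none of the pairs, with adjusted p of 0.0709, 0.115 and 0.113.

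An effect of the same sign as the difference, at an unadjusted p under 0.05, occurred at 16 of the 71 higher probes with 4-chloroaniline, at 3 with aniline and at 1 with 3,5-dichloroaniline, and at 0 of the 35 lower probes with each. Over all 6006 probes the counts were 92, 101 and 99 in that order. These are counts of single-chemical effects, and only the pair tests compare the chemicals.

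DM08571P2 read -0.18, -0.52 and -0.45 in the trichloroaniline controls and 1.36, 1.40 and 1.56 in the exposed samples. With 4-chloroaniline it read -0.30, -0.81 and -0.54 in the controls and 0.68, 0.19 and 0.46 in the exposed samples. With 3,5-dichloroaniline it read -0.79, -1.02 and -0.93 in the controls and -0.50, -0.63 and -0.76 in the exposed samples. The exposed samples were above their controls in these 3 experiments, by the least with 3,5-dichloroaniline (a fitted 0.28, not called), and overlapped them with aniline. The trichloroaniline effect exceeded that of aniline by 1.92 (adjusted p = 0.0024) and that of 3,5-dichloroaniline by 1.54 (0.0184). Over 4-chloroaniline the excess was 0.82, with an interval of 0.21 to 1.43, and did not pass (adjusted p = 0.276).

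DM08380P2 read -0.90, -0.91 and -1.24 in the trichloroaniline controls and 0.94, 0.98 and 1.49 in the exposed samples. The 4-chloroaniline samples read 0.40, -0.94 and -0.95 without and 0.53, 0.51 and 1.45 with the chemical, and control 1 nearly reached the exposed samples. The aniline and 3,5-dichloroaniline samples were low with and without the chemical, between -1.71 and -0.25. Trichloroaniline exceeded aniline by 2.34 (adjusted p = 0.0184) and 3,5-dichloroaniline by 2.16 (0.0287), but 4-chloroaniline only by 0.89, with an interval of -0.02 to 1.80 (0.458). DM06832P1 gave 2.44 (0.0173), 2.15 (0.0327) and 1.00 (0.407) in the same order. Against the mean of the 3 the differences were 1.43 ± 0.24 at DM08571P2, 1.80 ± 0.36 at DM08380P2 and 1.86 ± 0.38 at DM06832P1 (SE, adjusted p = 0.00134, 0.00542 and 0.00542). With quantile normalization the difference at DM08380P2 was 2.82.

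DM07251P2, the 1 probe called for the mean effect of the 3 less chlorinated anilines (0.71 ± 0.11, SE, adjusted p = 0.00185), was chosen for description after its values were seen. It read -1.05, -0.82 and -1.03 in the 4-chloroaniline controls and 0.49, 0.48 and 0.46 in the exposed samples, and -0.72, -0.71 and -0.62 against 0.68, 0.86 and 1.12 with trichloroaniline. It rose by 1.53 with 4-chloroaniline (adjusted p = 2.44e-05) and by 1.49 with trichloroaniline (1.11e-05). The trichloroaniline effect differed by -0.04 from that of 4-chloroaniline, with an interval of -0.61 to 0.53. With 3,5-dichloroaniline the exposed samples read -0.64, -0.59 and -0.48, and the effect fell short of that of 4-chloroaniline by 1.24 (adjusted p = 0.045). The aniline exposed samples read 0.20, -0.24 and -0.32 and overlapped their controls at -0.40, -0.46 and -0.23. A rise at this probe was not confined to the anilines. In the cadmium experiment of the study its group mean was -0.54 in the controls and 1.83 in the exposed samples. The means were -1.17 and -0.95 with isobutanol, -0.20 and -0.95 with 3-chloropropanol, and -0.68 and -0.86 with 3,4-dichlorophenol.

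DM03126P4, also chosen after its values were seen, was the other probe called between 3,5-dichloroaniline and 4-chloroaniline, with the adjustment over all pairs together. It read 0.80, 0.65 and 0.47 in the 4-chloroaniline controls and 0.25, -0.45 and -0.12 in the exposed samples, a fall by 0.81 (adjusted p = 0.028). With trichloroaniline it read 0.03, 0.08 and 0.14 in the controls and 0.32, 0.34 and 0.35 in the exposed samples. The effect was 1.02 higher with 3,5-dichloroaniline (adjusted p = 0.0389) and 1.13 higher with trichloroaniline (0.0193) than with 4-chloroaniline. Against the mean of the 3 it was not called (0.51, adjusted p = 0.128). Just outside the threshold of the main difference lay DM08497P1, with 1.32 ± 0.37 (SE, adjusted p = 0.0524). DM11630P3, described above, lay inside it at an adjusted p of 0.0475. Other called probes lay nearer to it, such as DM04230P1 at 0.0499.

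The same 106 probes were read in the 4 other experiments of the study, which have controls of their own and share none with the anilines: isobutanol, 3-chloropropanol, 3,4-dichlorophenol and cadmium, each at its EC10. The labels give a renewal interval for the anilines alone. Isobutanol moved 79 of the 106 in the direction of the difference and was called in that direction at 42. It called 12.6% of all probes, 6.29% higher and 6.34% lower. Cadmium moved 77 the same way and was called at 22 (2.95% of all probes, 1.78% higher and 1.17% lower). 3,4-Dichlorophenol gave 71 and 14 (2.85%, 1.28% higher and 1.57% lower), and 3-chloropropanol 63 and 21 (8.72%, 5.13% higher and 3.6% lower). Over all 6006 probes the share with the same sign as the difference was 50% with isobutanol, 50.2% with 3-chloropropanol, 60.7% with 3,4-dichlorophenol and 52.9% with cadmium.

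The counts are also given for the higher and the lower probes apart, without a test of the difference between them. Of the 71 higher probes, 61 were positive with isobutanol and 28 were called higher, with a median effect of 0.51, and 52 were positive with cadmium, 16 called, with a median of 0.20. Of the 35 lower probes, 18 were negative with isobutanol and 14 called lower, and 25 were negative with cadmium and 6 called. Their median effects were -0.11 and -0.17. With 3-chloropropanol 43 of 71 and 20 of 35 had the sign of the difference. It was called in the opposite direction at 8 of the 106, against 234 of all 6006. Isobutanol was called in the opposite direction at 2 of the 106, against 283 of all 6006.

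Single probes varied in this respect. DM10770P3 was raised by 1.96 with cadmium (adjusted p = 1.39e-05), while its effects with isobutanol, 3-chloropropanol and 3,4-dichlorophenol were 0.27, -0.01 and -0.52, none of them called. DM08355P3 was called with none of the 4, and its fitted effect was between -0.15 and 0.30. DM00126P2 fell by 3.40 with isobutanol, 3.84 with 3-chloropropanol and 2.52 with cadmium (adjusted p = 0.000196, 9.41e-05 and 0.014). Its 3,4-dichlorophenol effect of -1.86 did not pass (adjusted p = 0.118). DM07423P3 was called with none of the 4, at 0.44, -0.53, -0.58 and -0.33. At DM08571P2 the fitted effects of isobutanol, 3-chloropropanol, 3,4-dichlorophenol and cadmium were 0.72, 0.93, 1.25 and 2.67. DM08380P2 gave 1.67, 0.31, 0.77 and 1.54 in the same order, and DM06832P1 0.99, 1.34, 1.34 and 0.52. Rises at these probes were thus not confined to 4-chloroaniline and trichloroaniline.

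**Figure D4:**
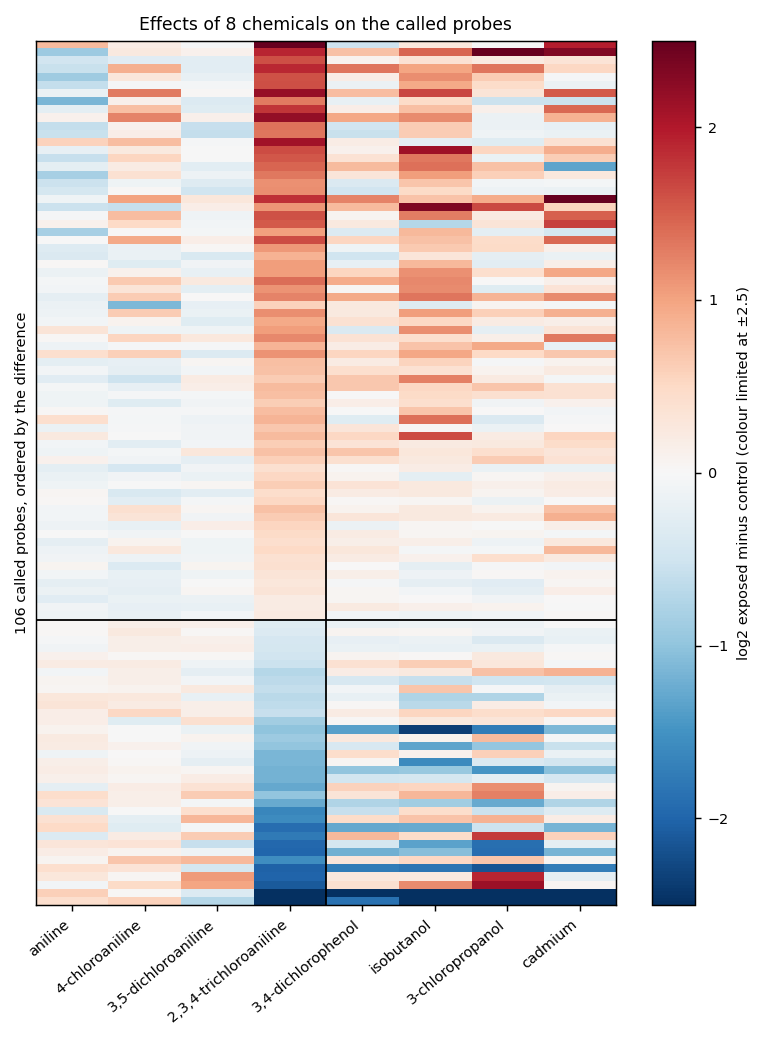
Fitted log2 effect (exposed minus control, colour limited at ± 2.5) of the 8 chemicals, in columns, on the 106 called probes, in rows ordered by the difference. The trichloroaniline column runs from the positive to the negative side as the calls require, the other 3 anilines are mostly pale, and the isobutanol, 3-chloropropanol, 3,4-dichlorophenol and cadmium columns share the sign of the difference at 79, 63, 71 and 77 probes.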

How the data were processed

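The 48 arrays were measured as sample against a common reference. The authors deposited 1 normalized value per probe and array, and its unit, log2 of sample over reference, was inferred from the values; background correction and normalization were not stated. No value was missing. Groups and dyes came from the labels. A linear model with 16 group means and the dye of the sample was fitted to all 6006 probes over the 48 arrays with limma 3.58.1 in R 4.3.3 (31 residual degrees of freedom), and contrasts were tested with moderated statistics and Benjamini-Hochberg adjustment over all probes, for the 6 aniline pairs over all pairs together. An adjusted p under 0.05 was a call. Precision was limited by the small number of arrays per group. The procedure was tested on simulated data with independent noise and 1 spread per probe in all experiments. The spread of the real data differed between experiments, so that test does not cover this feature.

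Probes named in the text are among those called with exposed samples all on 1 side of their controls: the largest differences and smallest adjusted p in each direction, the 3 called probes with the largest mean effect of the less chlorinated anilines, the probe of smallest p per trichloroaniline pair, and the nearest uncalled probes; exceptions are stated. The members and lists were chosen with earlier results of these data known. Gene lists could not be applied for want of gene names. Alternatives were the dye term, the arrays used, scaling, weights, filtering, a robust fit, a replicate block and leaving out arrays. Figures were drawn with matplotlib 3.10.9.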

Additional observations from a re-analysis of the deposited data

Results flagged for a closer look

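The comparisons below gave effects that differed between chemicals by a direct test of the difference. Trichloroaniline differed from the mean of the 3 less chlorinated anilines at 106 probes, from aniline at 25, from 4-chloroaniline at 26 and from 3,5-dichloroaniline at 20, and 3,5-dichloroaniline differed from 4-chloroaniline at 2. Adjusted within that pair alone, the last comparison gave 0 calls.

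The probes described here whose trichloroaniline effect differed from that mean fall into both directions. The higher ones were DM10770P3 (2.24), DM07587P3 (1.96), DM06832P1 (1.86), DM08380P2 (1.80), DM13814P1 (1.71), DM08571P2 (1.43), DM05303P1 (0.88) and DM08355P3 (0.75), as log2 differences. The lower ones were DM00126P2 (-3.76), DM11630P3 (-3.22), DM03516P2 (-2.46), DM07911P1 (-2.08), DM03174P1 (-2.04) and DM07423P3 (-1.64). Groups of 3 samples were not screened for single outlying samples.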

How the results depend on the processing

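The 17 probes tracked by name kept their direction in all 577 refits, with 33 calls lost and 17 gained. With array weights the main difference gave 785 calls, against aniline 465, against 4-chloroaniline 461, against 3,5-dichloroaniline 523, 4-chloroaniline against aniline 409, 3,5-dichloroaniline against aniline 511, 3,5-dichloroaniline against 4-chloroaniline 153, trichloroaniline alone 891, the mean of the other 3 12, exposed levels 1395 and control levels 193; the 3 aniline controls received weights of 0.252, 3.73 and 0.184. With 1 weight per chemical the main count was 323, against aniline 16, against 3,5-dichloroaniline 34, 3,5-dichloroaniline against 4-chloroaniline 0, trichloroaniline alone 689, the mean of the other 3 0, exposed levels 785 and control levels 51. With the 24 aniline arrays alone they were 57 for the main difference (43 of them among the 106), 12, 10 and 10 for the trichloroaniline pairs, 1 for 4-chloroaniline against aniline, 1 for 3,5-dichloroaniline against 4-chloroaniline, 146 for trichloroaniline alone, 2 for the mean of the other 3 and 11 for control levels. Equal scaling of arrays gave 70, 56, 15, 31, then 9, 23 and 4 for the other pairs, 134 for trichloroaniline alone, 329 for exposed and 50 for control levels. Quantile normalization gave 164 for the main difference, 121 against aniline, 72 against 3,5-dichloroaniline, 14, 37 and 14 for the other pairs and 60 for control levels. Without the dye term the main count was 79, with 12 against 4-chloroaniline, 11 against 3,5-dichloroaniline and 0 for 3,5-dichloroaniline against 4-chloroaniline. Testing only the 0.5 of probes that varied most gave 2, 1 and 4 for the pairs without trichloroaniline, and a robust fit 96 for the main difference. Leaving aniline out of the mean gave 57 calls. Chosen after seeing the data, leaving out the 6 3-chloropropanol arrays gave 162 for the main difference, 57 against 4-chloroaniline, 37 against 3,5-dichloroaniline, 8, 5 and 8 for the other pairs and 32 for control levels. Adjusting within each pair alone, also added later, gave 52, 80 and 32 for the trichloroaniline pairs and 0 for 3,5-dichloroaniline against 4-chloroaniline.

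Leaving out 1 array in turn gave 35 to 222 calls for the main difference, 6 to 63 against aniline, 5 to 167 against 4-chloroaniline, 6 to 44 against 3,5-dichloroaniline, 0 to 78 for 4-chloroaniline against aniline, 0 to 18 for 3,5-dichloroaniline against aniline, 0 to 42 for 3,5-dichloroaniline against 4-chloroaniline, 75 to 269 for trichloroaniline alone, 1 to 2 for the mean of the other 3, 212 to 601 for exposed levels and 6 to 40 for control levels. Exposed-level counts fell to 320, 212 and 312 without trichloroaniline exposed samples 1, 2 and 3. The cause of these changes was not tested.

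Replicate numbers did not pair the samples. After the group means and the dye were removed, the same-numbered pairs of the 4 anilines correlated at -0.30 to 0.30, 3 of 12 above 0.1. On the same residual values, 4 of 12 exposed arrays correlated best with the control of their own number. With the replicate block the main count was 107, of which 75 were among the 106, with 13 against aniline, 12 against 3,5-dichloroaniline, 1 for 4-chloroaniline against aniline and 7 for 3,5-dichloroaniline against 4-chloroaniline.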

Other observations

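Among the 106 called probes, 23 of 5565 pairs correlated at r above 0.95 over the 24 aniline arrays after the dye was removed. These arrays include the groups that made the calls, so the values are a description. The closest pair was DM13814P1 with DM11497P3 (r = 0.997), and both were close to DM11208P3, DM09685P3 and DM06804P1, with all 10 pairs among the 5 at 0.96 or above. These companions were chosen after their values were seen.

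DM13814P1 read -0.57, -0.46 and -0.79 in the trichloroaniline controls and 0.62, 0.71 and 0.96 in the exposed samples. With 4-chloroaniline it read 1.53, 0.44 and 0.17 in the controls and 0.40, 0.49 and 1.52 in the exposed samples, and the groups overlapped over a wide range. With aniline it read -0.01, -0.20 and -0.49 in the controls and -1.01, -0.85 and -0.64 in the exposed samples, and with 3,5-dichloroaniline -0.90, -0.68 and -0.23 against -1.46, -0.94 and -1.11. All exposed samples lay below their controls in both, with fitted effects of -0.59 and -0.58 that were not called and that form part of the difference. Its difference was 1.71 ± 0.35 (SE, adjusted p = 0.00644).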
